A study of Mus musculus with 12 samples.

Results

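A set of 8 genes of sphingomyelin metabolism was followed in MC3T3-E1 cells, subclone 14, a mouse pre-osteoblast line grown in osteogenic medium, across 4 treatment arms. The genes were Sgms1, Sgms2, Smpd1, Smpd3, Sphk1, Sphk2, Ugcg and Cers2, chosen by gene name, and all 8 were among the 39032 genes of the deposited table and among the 11548 genes tested. The list carries no threshold on a value, but it was drawn up with the FPKM of these 4 arms known, with Sgms2 and Smpd3 singled out for their ties to mineralization. The levels below are therefore a description of these libraries, and the adjusted p-values are not independent evidence.

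The arms were BMP2+RSPO2 (100 ng/ml of recombinant BMP2, a bone morphogenetic protein, with 200 ng/ml of recombinant RSPO2, an R-spondin), BMP2 (100 ng/ml), RSPO2 (200 ng/ml) and Control (vehicle), with 3 independent biological replicates each and 12 libraries in all. Every arm, Control included, was kept for 5 days in medium with 10% serum, 50 µg/mL of an ascorbate salt and 5 mM β-glycerophosphate, and all cells carry the genotype entry wild type. The cells come from 1 clonal line and the libraries from whole cultures, so a change in the share of cells in a given state and a change in RNA per cell cannot be told apart. The design asks how each protein alone and the pair together alter expression in differentiating osteoblasts.

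Sphingomyelin is made from ceramide and phosphatidylcholine by sphingomyelin synthases and is cut back to ceramide and phosphocholine by sphingomyelinases. Ceramide can instead be glucosylated, or be stripped to sphingosine, which sphingosine kinases turn into the signalling lipid sphingosine 1-phosphate. In bone, phosphocholine released from membrane lipid is a source of phosphate for mineral, variants of human SGMS2 cause a skeletal disorder with osteoporosis, and mice that lack functional Smpd3 have poorly mineralized bone and teeth. BMP2 signals through SMAD transcription factors, and R-spondins raise Wnt signalling, which acts through TCF/LEF factors at target genes.

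Upstream sequence is shown for the sphingomyelin synthases, because Sgms2 had the largest log2 change of the 8 genes in BMP2+RSPO2 against Control and Sgms1 did not share it. The RefSeq table of windows (build GRCm38.p6) matched 7 of the 8 genes with 21 windows, each holding the 250 bases upstream of an annotated start, of which 6 belong to Sgms2 and 4 to Sgms1. Smpd3 had no window, so its upstream sequence was not searched. Both strands were searched for ACCACA (reverse complement TGTGGT, the core bound by RUNX factors), for AACAAAG (TCF/LEF) with the variants that differ from it in the leading bases (ATCAAAG is the form seen below, TACAAAG occurs further inside the gene, and the form TTCAAAG was searched as well) and all their reverse complements, and for GGCGCC (a BMP SMAD element). None of these words is part of another. Of all 32851 windows in the table, 14.0% held the RUNX word, 14.8% a TCF/LEF word and 9.59% the SMAD word. The windows below are printed 5′ to 3′ on the strand of the gene, which is the minus strand for all 3, with the matched letters in capitals. The first is the window at chr3:131491444-131491693, upstream of the outermost Sgms2 start. The second lies upstream of another Sgms2 start, at chr3:131489043-131489292. The third, at chr19:32388513-32388762, is the window of the outermost Sgms1 start and held none of the letters searched.
Sgms2 outer start: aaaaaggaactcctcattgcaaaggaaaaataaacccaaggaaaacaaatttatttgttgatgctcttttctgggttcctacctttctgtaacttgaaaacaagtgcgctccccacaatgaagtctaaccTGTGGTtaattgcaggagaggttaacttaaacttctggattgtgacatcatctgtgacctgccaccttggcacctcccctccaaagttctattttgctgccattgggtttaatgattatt
Sgms2 inner start: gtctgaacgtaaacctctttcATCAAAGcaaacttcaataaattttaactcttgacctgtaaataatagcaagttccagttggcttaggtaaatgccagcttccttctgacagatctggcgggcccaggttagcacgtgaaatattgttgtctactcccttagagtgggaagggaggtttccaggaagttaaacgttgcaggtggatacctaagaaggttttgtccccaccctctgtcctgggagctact
Sgms1 outer start: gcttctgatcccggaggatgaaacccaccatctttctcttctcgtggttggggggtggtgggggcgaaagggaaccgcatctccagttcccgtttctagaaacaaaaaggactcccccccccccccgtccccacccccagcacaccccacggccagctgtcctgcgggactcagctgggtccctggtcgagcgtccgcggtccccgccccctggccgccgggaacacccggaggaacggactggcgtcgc
The TGTGGT in the outer Sgms2 window begins 120 bases upstream of the start, and the ATCAAAG in the inner window begins 229 bases upstream. Of the other Sgms2 windows, that of the start at position 131490230 held GGCGCC at 34 bases upstream and that of the start at position 131344908 held TACAAAG at 28 bases upstream. The Sgms2 windows of the starts at positions 131490660 and 131489769 held none of the letters searched. Both Sgms2 windows printed are thus among those with a match. Elsewhere among the 7 genes with windows, which leave out Smpd3, TGTGGT and GGCGCC were found upstream of 1 Sphk2 start, GGCGCC upstream of 1 Cers2 start, and CTTTGTA upstream of an internal Sgms1 start. A match describes letters only, and which start was in use was not measured.

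Sgms2 encodes the sphingomyelin synthase found at the plasma membrane as well as in the Golgi, and its gene spans chr3:131318985-131491411 on the minus strand in GENCODE M21 (GRCm38). In FPKM, the deposited unit, which scales fragments to transcript length and to the fragments mapped in the library, Sgms2 stood at 138, 187 and 180.3 in the 3 BMP2+RSPO2 libraries, at 69.4, 52.7 and 57.2 with BMP2, at 12.8, 16.7 and 25.0 with RSPO2, and at 16.3, 24.3 and 31.4 in Control. The BMP2+RSPO2 libraries lay above all BMP2 libraries, and the BMP2 libraries above all Control libraries, whereas RSPO2 and Control overlapped. The arm means were 168 ± 26.1 FPKM in BMP2+RSPO2, 59.8 ± 8.65 in BMP2, 18.2 ± 6.20 in RSPO2 and 24.0 ± 7.55 in Control (SD, n = 3 each).

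Changes were estimated for all tested genes together with limma on log2(FPKM + 1), and a gene was called where its Benjamini-Hochberg adjusted p over all 11548 genes was under 0.05. Sgms2 rose by 2.80 on the log2 scale (SE 0.27) in BMP2+RSPO2 against Control, which is 6.95-fold on the FPKM + 1 scale (limma adjusted p = 0.000136) and the 10th highest log2 change of the 11548 genes. With BMP2 alone Sgms2 rose by 1.32 against Control (SE 0.27, limma adjusted p = 0.0380). That call was lost when any of 8 of the 12 libraries was left out, namely BMP2+RSPO2 replicate 2 or 3, each BMP2 replicate, RSPO2 replicate 2, or Control replicate 1 or 2, with adjusted p between 0.0270 and 0.139 over the 12 fits, and when the filter on low values was dropped (0.0809). With RSPO2 alone the difference from Control was -0.39 (95% interval -0.97 to 0.20, limma adjusted p = 1.00).

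Adding RSPO2 to BMP2 raised Sgms2 by 1.48 on the log2 scale over BMP2 alone (SE 0.27, limma adjusted p = 0.0199). Leaving out BMP2+RSPO2 replicate 2, BMP2 replicate 2 or BMP2 replicate 3 ended that call, with adjusted p up to 0.0821. On top of BMP2, the RSPO2 effect was larger by 1.86 than the RSPO2 effect over vehicle (the interaction, SE 0.38). This difference had an unadjusted p of 0.000498 and a limma adjusted p of 0.0745, and did not pass the threshold. The adjusted p was 0.0433 without BMP2+RSPO2 replicate 1 and 0.0474 without Control replicate 1. In the other 10 of the 12 fits without 1 library the interaction was not called, with adjusted p up to 0.228. Nor was it called under quantile normalization (0.0911), under median-of-ratios scaling (0.0965) or without the filter on low values (0.135).

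Smpd3 encodes neutral sphingomyelinase 2, which cleaves sphingomyelin at the plasma membrane, and its gene spans chr8:106252548-106337988 on the minus strand in GENCODE M21. It stood at 199, 285 and 273 FPKM in BMP2+RSPO2 libraries, at 150.5, 146 and 145 with BMP2, at 27.9, 49.6 and 69.0 with RSPO2, and at 43.1, 83.7 and 88.3 in Control. As with Sgms2, each BMP2+RSPO2 library exceeded each BMP2 library and each BMP2 library exceeded each Control library, and RSPO2 overlapped with Control. The lowest library of the BMP2+RSPO2, RSPO2 and Control arms was replicate 1 in each case.

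Smpd3 rose by 1.85 on the log2 scale in BMP2+RSPO2 against Control (SE 0.33, 3.61-fold on the FPKM + 1 scale, limma adjusted p = 0.00390). For BMP2 alone against Control the estimate was 1.10 (95% interval 0.36 to 1.83) with a limma adjusted p of 0.190, and for BMP2+RSPO2 against BMP2 it was 0.75 (0.02 to 1.49) with an adjusted p of 0.184. Neither passed the threshold although the libraries did not overlap in either comparison. In replicates 2 and 3 alone, both comparisons were called, at 0.75 (limma adjusted p = 0.0269) and 0.93 (limma adjusted p = 0.00748). RSPO2 alone against Control gave -0.57 (-1.30 to 0.17, limma adjusted p = 1.00). Of the exon bases of Smpd3, 247 of 5232 are shared with Prmt7 on the opposite strand, and whether strand was used in the quantification is not given in the sources used here.

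**Figure D1:**
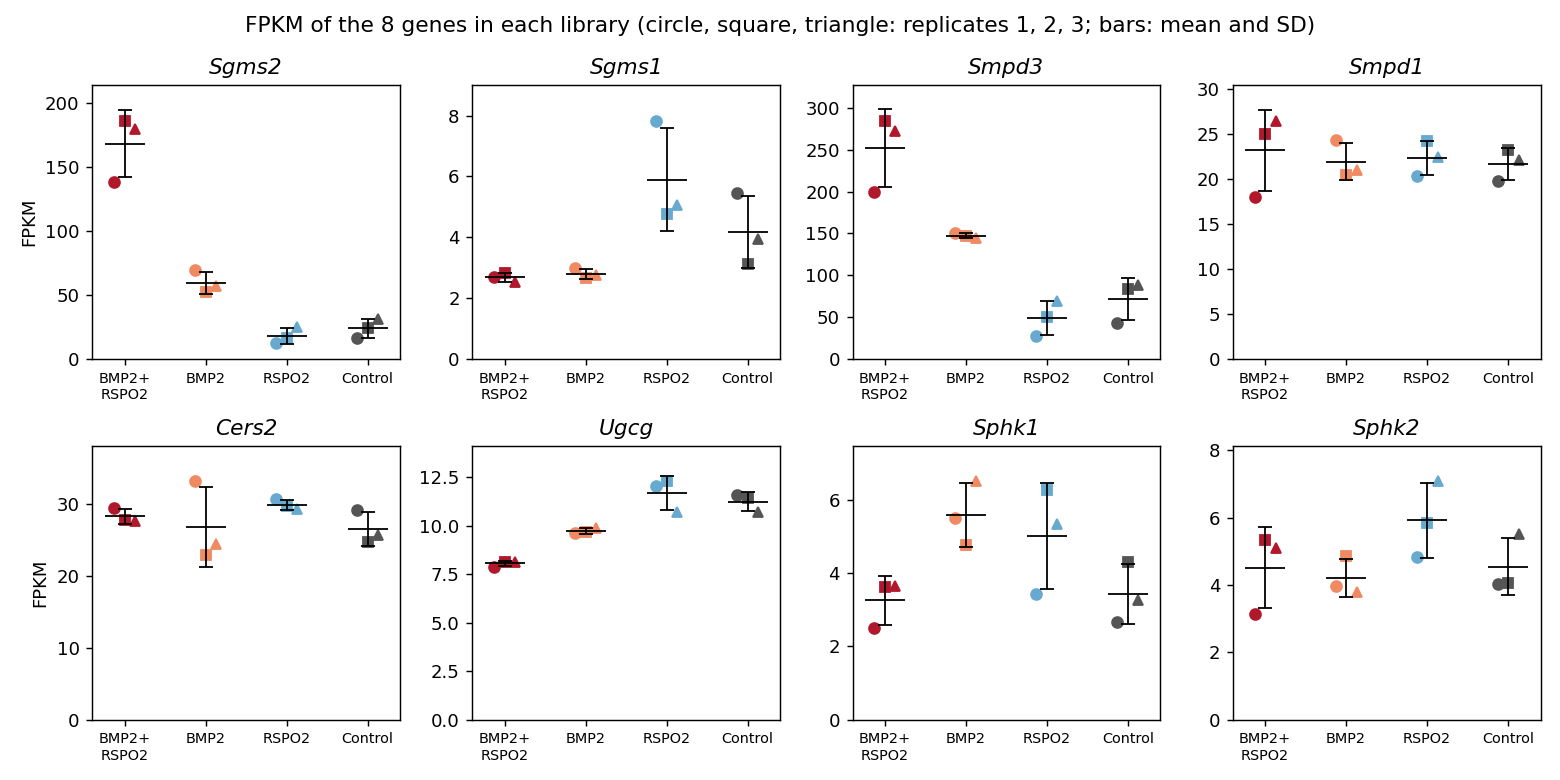
FPKM of the 8 genes in each of the 12 libraries (y axis, linear, from 0), by arm (x axis), with circles, squares and triangles for replicates 1, 2 and 3 and bars for the arm mean and SD. Sgms2 and Smpd3 step up in BMP2 and again in BMP2+RSPO2, to means of 168 and 252 FPKM, while Ugcg is lowest in BMP2+RSPO2 at 8.05 FPKM.

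The other synthase, Sgms1, which makes sphingomyelin in the Golgi, was low, and its values were lower in the arms given BMP2. It had 2.71, 2.81 and 2.52 FPKM in BMP2+RSPO2 libraries, 2.99, 2.67 and 2.76 with BMP2, 7.83, 4.77 and 5.06 with RSPO2, and 5.47, 3.12 and 3.95 in Control. Every BMP2+RSPO2 and BMP2 library lay below every RSPO2 and Control library. Sgms1 fell by 0.88 on the log2 scale in BMP2+RSPO2 against RSPO2 (SE 0.19, limma adjusted p = 0.00800). Against Control the BMP2+RSPO2 estimate was -0.47 (95% interval -0.89 to -0.05, limma adjusted p = 0.0967) and the BMP2 estimate was -0.42 (limma adjusted p = 0.503), and neither passed the threshold. The all-gene median for BMP2+RSPO2 against Control was -0.26. Under quantile normalization and median-of-ratios scaling Sgms1 was there at -0.26 and -0.27 (limma adjusted p = 0.325 and 0.313). The fall against RSPO2 was still called under both, at -0.65 and -0.66 (limma adjusted p = 0.0234 and 0.0233). BMP2+RSPO2 against BMP2 gave -0.05 (limma adjusted p = 0.881), with overlapping libraries. With the replicate number as a block, Sgms1 was called in BMP2+RSPO2 against Control (limma adjusted p = 0.0390). In RSPO2 and Control the highest Sgms1 value was in replicate 1.

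The lysosomal sphingomyelinase gene Smpd1 was called in no comparison over all libraries. Its arm means were 23.2 ± 4.49 FPKM in BMP2+RSPO2, 21.9 ± 2.09 in BMP2, 22.3 ± 1.91 in RSPO2 and 21.7 ± 1.77 in Control (SD, n = 3 each). All arms overlapped, and the estimate for BMP2+RSPO2 against Control was 0.08 on the log2 scale (95% interval -0.25 to 0.40). In replicates 2 and 3 alone, Smpd1 was called in BMP2+RSPO2 against BMP2, at 0.30 (limma adjusted p = 0.0288).

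The ratio of paired enzymes within a library shows how the balance of the transcripts moved. Sgms2 had 51.1, 66.4 and 71.5 times the FPKM of Sgms1 in BMP2+RSPO2 libraries, 23.2, 19.7 and 20.7 times with BMP2, 1.64, 3.50 and 4.93 times with RSPO2, and 2.98, 7.78 and 7.94 times in Control. Smpd3 had 11.0, 11.4 and 10.3 times the FPKM of Smpd1 in BMP2+RSPO2 libraries, 6.19, 7.15 and 6.90 times with BMP2, 1.37, 2.05 and 3.08 times with RSPO2, and 2.18, 3.60 and 4.00 times in Control. In both pairs the BMP2+RSPO2 ratios lay above the BMP2 ratios and these above the Control ratios, with RSPO2 and Control overlapping. These ratios follow from the same values as the fits and were not tested separately.

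**Figure D2:**
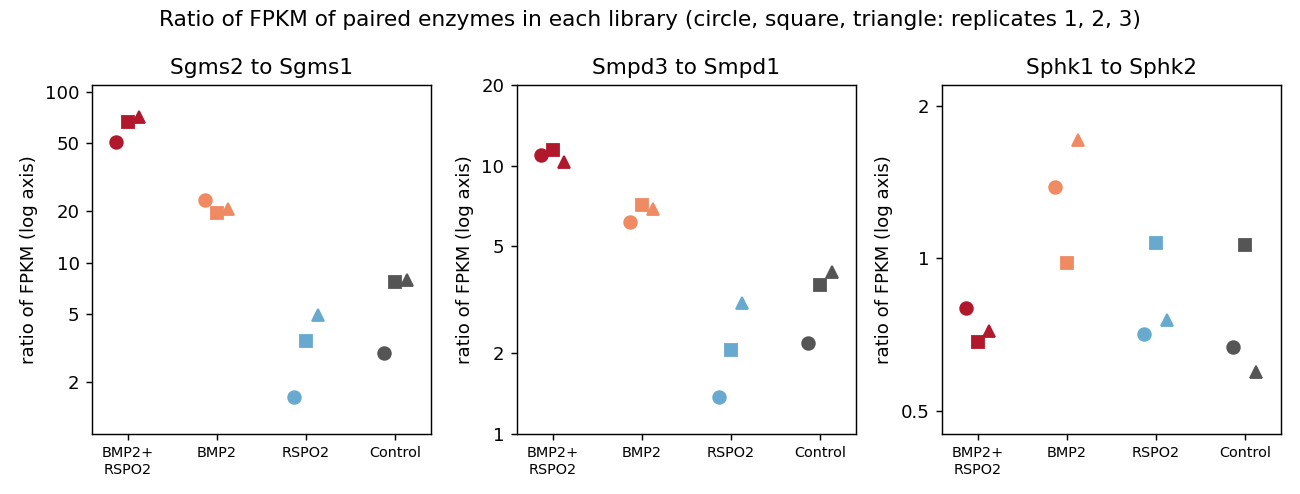
Ratio of FPKM between paired enzymes in each library (y axis, log scale), by arm (x axis), with circles, squares and triangles for replicates 1, 2 and 3. The ratio of Sgms2 to Sgms1 reaches 51.1 to 71.5 in BMP2+RSPO2 against 2.98 to 7.94 in Control. The ratio of Sphk1 to Sphk2 is 0.682 to 0.796 in BMP2+RSPO2, within its range of 0.595 to 1.06 in Control.

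Of Ugcg and Cers2, which glucosylate and make ceramide, only Ugcg was called in the main fit. Ugcg, the glucosylceramide synthase that starts the glycosphingolipids, had 7.89, 8.14 and 8.12 FPKM in BMP2+RSPO2 libraries, 9.59, 9.65 and 9.88 with BMP2, 12.1, 12.3 and 10.7 with RSPO2, and 11.6, 11.4 and 10.7 in Control. The BMP2+RSPO2 libraries lay below all others, and the BMP2 libraries lay between them and the RSPO2 and Control libraries. Ugcg fell by 0.43 on the log2 scale in BMP2+RSPO2 against Control (SE 0.09, limma adjusted p = 0.00678) and by 0.48 against RSPO2 (SE 0.09, limma adjusted p = 0.00315). The median of all tested genes was itself -0.26 in each of these comparisons, so relative to it Ugcg was at -0.18 and -0.22. With quantile normalization or median-of-ratios scaling, which remove that shift, Ugcg was no longer called, at -0.22 and -0.20 against Control (limma adjusted p = 0.110 and 0.144) and at -0.25 and -0.23 against RSPO2 (limma adjusted p = 0.0723 and 0.0890).

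Cers2, the ceramide synthase for very-long-chain ceramides, averaged 28.3 ± 1.04 FPKM in BMP2+RSPO2, 26.8 ± 5.52 in BMP2, 29.9 ± 0.683 in RSPO2 and 26.5 ± 2.32 in Control (SD, n = 3 each), and it was called in no comparison. Its estimate for BMP2+RSPO2 against Control was 0.09 (95% interval -0.20 to 0.38), and with quantile normalization it was 0.36 and called (limma adjusted p = 0.0442).

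The sphingosine kinases were low. Sphk1, the kinase found mainly in the cytosol and at the plasma membrane, had 2.49, 3.63 and 3.66 FPKM in BMP2+RSPO2 libraries, 5.49, 4.76 and 6.50 with BMP2, 3.43, 6.26 and 5.33 with RSPO2, and 2.68, 4.31 and 3.28 in Control. The BMP2 libraries lay above all BMP2+RSPO2 and Control libraries, while RSPO2 overlapped with the other arms. No comparison passed the threshold. The estimate for BMP2 against Control was 0.58 (95% interval 0.11 to 1.05, limma adjusted p = 0.318), that for BMP2+RSPO2 against BMP2 was -0.63 (-1.10 to -0.16, limma adjusted p = 0.106) and the interaction was -1.06 (-1.72 to -0.40, limma adjusted p = 0.185). With the replicate number as a block, Sphk1 was called in BMP2+RSPO2 against BMP2 (limma adjusted p = 0.0376). Sphk2, the kinase found largely in the nucleus and mitochondria, averaged 4.51 ± 1.20 FPKM in BMP2+RSPO2, 4.21 ± 0.567 in BMP2, 5.91 ± 1.12 in RSPO2 and 4.53 ± 0.846 in Control (SD, n = 3 each) and was called in no comparison. Of the exon bases of Sphk2, 912 of 4159 overlap with Dbp and Rpl18 on the opposite strand, so reads from these genes may not be separable.

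FPKM is scaled to transcript length, so levels can be ordered between genes. Smpd3 was the highest of the 8 in every arm. In BMP2+RSPO2 it was followed by Sgms2, Cers2, Smpd1 and Ugcg, each separated from the next by non-overlapping libraries, and then by Sphk2, Sphk1 and Sgms1, where neighbours overlapped. With BMP2 the order was Smpd3, Sgms2, Cers2, Smpd1, Ugcg, Sphk1, Sphk2 and Sgms1, with overlap between Cers2 and Smpd1 and between the kinases. With RSPO2 it was Smpd3, Cers2, Smpd1, Sgms2, Ugcg, Sphk2, Sgms1 and Sphk1, with overlap between Smpd3 and Cers2, between Smpd1 and Sgms2, and among the lowest genes. In Control the order was Smpd3, Cers2, Sgms2, Smpd1, Ugcg, Sphk2, Sgms1 and Sphk1, with overlap between Cers2 and Sgms2, between Sgms2 and Smpd1, and among the lowest genes. Averaged over all libraries, Smpd3 exceeded 97.0% and Sgms2 exceeded 94.0% of the tested genes, against 30.3% for Sgms1.

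**Figure D3:**
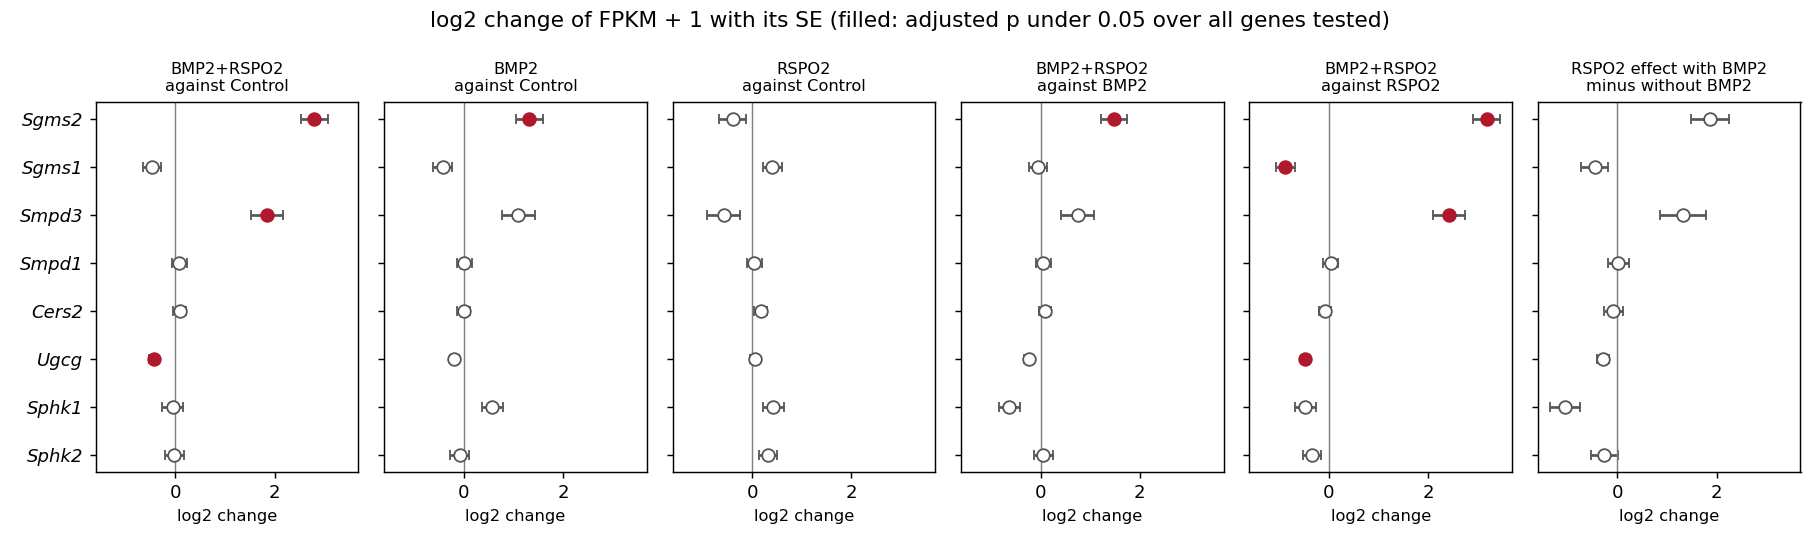
log2 change of FPKM + 1 (x axis) with its SE for the 8 genes (y axis) in 5 comparisons and for the interaction, with filled points where the limma adjusted p was under 0.05. Sgms2 is filled in 4 panels, and no gene is filled in the panels for RSPO2 against Control and for the interaction.

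Counted over the 8 genes, 3 were called in BMP2+RSPO2 against Control (Sgms2 and Smpd3 rose, Ugcg fell), beside 23.0% of all genes tested (3.65% higher and 19.4% lower). In BMP2 against Control 1 was called (Sgms2), beside 1.52% of all genes. In RSPO2 against Control limma called 0 of the 8, beside 0.0779% of all genes, and 0 had an unadjusted p under 0.05, beside 3.62%. In BMP2+RSPO2 against BMP2 1 was called (Sgms2), beside 4.38%. In BMP2+RSPO2 against RSPO2 4 were called (Sgms2 and Smpd3 rose, Sgms1 and Ugcg fell), beside 26.1% (4.32% higher and 21.8% lower). For the interaction limma called 0, beside 0.294%, and 4 (Sgms2, Sphk1, Smpd3 and Ugcg) had an unadjusted p under 0.05, beside 13.0%. Libraries did not overlap for 4 of the 8 genes in BMP2+RSPO2 against Control (44.0% of all genes), 5 in BMP2 against Control (20.8%), 1 in RSPO2 against Control (9.33%), 4 in BMP2+RSPO2 against BMP2 (33.6%) and 4 in BMP2+RSPO2 against RSPO2 (42.3%). The median log2 change of the 8 genes was 0.03 in BMP2+RSPO2 against Control, beside -0.26 for all genes. Comparisons that share BMP2+RSPO2 or Control libraries are not independent of each other.

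The rest of the pathway was described from 5 lists with 61 genes in the table, of which 43 were tested. In BMP2+RSPO2 against Control limma called 8 of the 43 (18.6%, beside 23.0% of all genes tested), with 2 higher (Spns2 and Cerk) and 6 lower (Plpp3, Plpp1, A4galt, S1pr2, Sptssa and Cers6). Only Plpp3 was called in BMP2 against Control, S1pr2 was called lower in BMP2+RSPO2 against BMP2, and limma called 0 in RSPO2 against Control, with 0 at an unadjusted p under 0.05. Against RSPO2, BMP2+RSPO2 gave 10 calls (23.3%, beside 26.1% of all genes), so in neither comparison was the share above that over all genes. These 10 added Smpd2, another neutral sphingomyelinase gene, and Sgpp1, a sphingosine 1-phosphate phosphatase gene, both lower. Smpd2 fell by 0.72 and Sgpp1 by 0.60 (limma adjusted p = 0.0382 and 0.0385). The call of Smpd2 was lost without BMP2 or Control replicate 2 or 3 or any RSPO2 library, and that of Sgpp1 without replicate 2 or 3 of BMP2+RSPO2, BMP2 or Control or RSPO2 replicate 1 or 2, with adjusted p up to 0.0983 and 0.123. Both were also lost under quantile normalization (0.168 and 0.205) and without the filter on low values (0.0809 and 0.0685). The median log2 change of the 43 genes in BMP2+RSPO2 against Control was -0.23, beside -0.26 for all genes.

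Among genes around sphingosine 1-phosphate, 1 of the 7 tested rose and 2 fell in BMP2+RSPO2 against Control (42.9%, beside 23.0% of all genes tested). The exporter gene Spns2 had 7.08, 41.1 and 36.6 FPKM in BMP2+RSPO2 libraries and 2.61, 7.11 and 6.80 in Control, so replicate 1 of BMP2+RSPO2 lay within the Control range. It rose by 1.94 (limma adjusted p = 0.0346), and by 2.70 (limma adjusted p = 0.00141) without that library. The call was lost without 7 other libraries (BMP2+RSPO2, BMP2 and Control replicates 2 and 3, and Control replicate 1), with adjusted p up to 0.124, and without the filter on low values (0.0760). The receptor gene S1pr2 had 7.60, 7.41 and 7.02 FPKM in BMP2+RSPO2 libraries, against 15.5, 15.6 and 12.7 in Control, without overlap, and fell by 0.90 (SE 0.10, limma adjusted p = 0.000445). Against BMP2, S1pr2 fell by 0.45 in BMP2+RSPO2 (limma adjusted p = 0.0423). Of the 12 fits without 1 library it stayed called there only without BMP2+RSPO2 replicate 1 or RSPO2 replicate 1 (adjusted p up to 0.126), and the call was lost under quantile normalization (0.142) and median-of-ratios scaling (0.166). Plpp3, a lipid phosphate phosphatase gene, had 1.53, 1.07 and 1.64 FPKM in BMP2+RSPO2 libraries, against 4.84, 4.98 and 4.25 in Control, and fell by 1.24 (SE 0.16, limma adjusted p = 0.000713). Its fall of 0.86 with BMP2 alone (limma adjusted p = 0.0242) was lost without any BMP2 or Control library, and under quantile normalization (0.0575).

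Of the 10 tested genes of ceramide synthesis, 0 rose and 2 fell. Sptssa, a small subunit of serine palmitoyltransferase, had 11.6, 18.2 and 19.7 FPKM in BMP2+RSPO2 libraries, against 43.3, 27.5 and 29.5 in Control, and fell by 0.98 (limma adjusted p = 0.0154, and 0.0586 without Control replicate 1). Cers6, another ceramide synthase gene, had 4.39, 1.45 and 1.37 FPKM in BMP2+RSPO2 libraries, against 4.97, 4.56 and 4.41 in Control. Its fall of 0.84 had a limma adjusted p of 0.0387, became 1.23 (limma adjusted p = 5.09e-05) without BMP2+RSPO2 replicate 1, and was lost without each of the other 11 libraries (adjusted p up to 0.112) and under quantile normalization (0.116). Of 5 ceramidase and ceramide kinase genes, the kinase Cerk rose by 0.74 (limma adjusted p = 0.0234), at 9.78, 18.6 and 18.8 FPKM in BMP2+RSPO2 libraries, against 8.37, 8.72 and 8.73 in Control. That call was lost without BMP2+RSPO2 replicate 2 or 3 or any Control library, with adjusted p up to 0.0726.

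Of 13 tested glycosphingolipid genes, 1 was called in BMP2+RSPO2 against Control (7.69%, beside 23.0% of all genes tested). This was A4galt, the synthase of globotriaosylceramide, which fell by 1.27 (limma adjusted p = 0.0121). Of 8 other sphingomyelin genes, Plpp1, a relative of Plpp3, fell by 1.23 (limma adjusted p = 0.00285).

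Matrix mineralization genes were set beside the 8 because of the ties of Sgms2 and Smpd3 to that process. Of 12 tested, 3 rose and 3 fell in BMP2+RSPO2 against Control (50.0%, beside 23.0% of all genes tested). Alpl, the alkaline phosphatase that frees phosphate for mineral, had 24.7, 35.9 and 35.0 FPKM in BMP2+RSPO2 libraries, against 9.20, 8.64 and 8.30 in Control, and rose by 1.74 (limma adjusted p = 0.000322). Ibsp, which encodes the bone matrix protein bone sialoprotein, rose by 2.03 (limma adjusted p = 0.000741). Bglap2, an osteocalcin gene with near-identical copies, had 57.9, 1380.4 and 1297 FPKM in BMP2+RSPO2 libraries, against 68.3, 37.8 and 48.3 in Control. Its rise of 3.21 (limma adjusted p = 0.0439) became 4.71 (limma adjusted p = 0.000279) without BMP2+RSPO2 replicate 1 and was lost without each of the other 11 libraries (adjusted p up to 0.125) and without the filter (0.0939). The genes that fell were Anxa6 and Anxa5, which encode annexins found in matrix vesicles, and Slc20a2, a phosphate transporter gene, by 0.86, 0.45 and 0.57 (limma adjusted p = 0.00600, 0.0463 and 0.00685). Under quantile normalization Anxa6 was at -0.49 (limma adjusted p = 0.0722) and Anxa5 at -0.08 (limma adjusted p = 0.705), and of the 12 fits without 1 library Anxa5 stayed called only without BMP2+RSPO2 replicate 3 and without BMP2 replicate 1. Phospho1, which encodes the phosphatase that acts on phosphocholine, spread over 132 to 356 FPKM in BMP2+RSPO2 libraries and 34.4 to 157 in Control and was not called (limma adjusted p = 0.244).

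**Figure D4:**
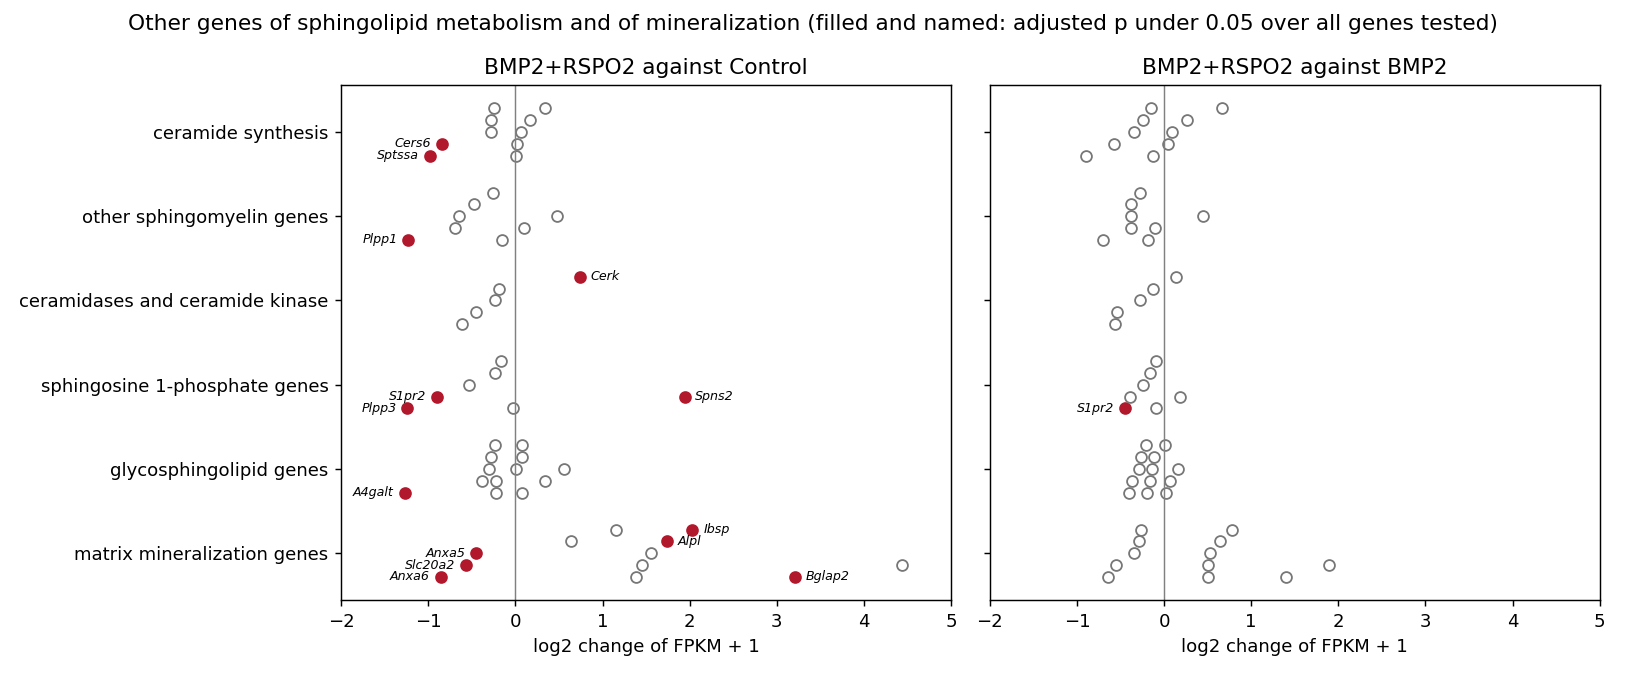
log2 change of FPKM + 1 (x axis) for the tested genes of 5 sphingolipid lists and of the mineralization list (y axis), in BMP2+RSPO2 against Control (left) and against BMP2 (right), with called genes filled and named. Most sphingolipid genes lie left of 0, near the all-gene median of -0.26 on the left, and Spns2 at 1.94 and Cerk at 0.74 are the sphingolipid genes called higher.

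All 6 osteoblast markers (Runx2, Sp7, Col1a1, Col1a2, Alpl and Ibsp) rose in BMP2+RSPO2 against Control (100.0%, beside 3.65% of all genes called higher). Alpl and Ibsp rose with BMP2 alone (33.3%, beside 1.52% of all genes called). Their summed level was 16169 to 22985 FPKM in BMP2+RSPO2, 12626 to 15697 in BMP2, 6541 to 9844 in RSPO2 and 7009.8 to 10548 in Control, which puts the arms in the order seen for Sgms2 and Smpd3, with RSPO2 and Control overlapping. Most of this sum is Col1a1 and Col1a2, at means of 5581 and 2971 FPKM in Control, against 645 for Ibsp. Each marker had its highest arm mean in BMP2+RSPO2 and the next in BMP2, but for Runx2, Sp7, Col1a2 and Ibsp the libraries of these arms overlapped. Not all of the calls held when a library was left out. In BMP2+RSPO2 against Control, the call of Runx2 was lost without BMP2+RSPO2 replicate 1 or 3 or Control replicate 1 (adjusted p up to 0.0979), that of Sp7 without BMP2+RSPO2 replicate 2 or 3 or Control replicate 1 (up to 0.0823), and that of Col1a2 without each library other than BMP2+RSPO2 replicate 1 (adjusted p up to 0.157). With BMP2 alone, the call of Alpl was lost without any BMP2 or Control library (adjusted p up to 0.0740), and that of Ibsp without any BMP2 library or Control replicate 1 or 2 (up to 0.0688) and without the filter on low values (0.0576). Under quantile normalization Col1a1 and Col1a2 were not called (limma adjusted p = 0.612 and 0.326), nor were they without the filter (0.349 and 0.294).

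Some markers of other lineages moved with the arms too, and their part in the results was not tested. The 4 smooth muscle markers summed to 290.1 to 317 FPKM in BMP2+RSPO2, 697 to 748 in BMP2, 1148 to 1656 in RSPO2 and 1246 to 1544 in Control. Cnn1 and Myh11 did not exceed 0.09 and 0.11 FPKM in any library and were not tested, so this sum is that of Acta2 and Tagln. The 6 chondrocyte markers summed to 13.6 to 25.5 FPKM in BMP2+RSPO2, 21.1 to 44.5 in BMP2, 3.54 to 4.51 in RSPO2 and 6.59 to 12.3 in Control, with Acan, Col9a1 and Matn1 at 0 in every library. Most of this sum was Col2a1 and Sox9, at means of 13.2 and 5.09 FPKM in BMP2+RSPO2 and 4.30 and 5.49 in Control. Col2a1 rose against Control by 1.46 in BMP2+RSPO2 (limma adjusted p = 0.0282) and by 2.47 in BMP2 (limma adjusted p = 0.0161). Col10a1 rose by 1.71 in BMP2+RSPO2 (limma adjusted p = 0.0319). Sox9 was not called in BMP2+RSPO2 or BMP2 against Control. With 1 library left out, these adjusted p reached 0.102, 0.0847 and 0.0964, so each call could be lost. The 6 adipocyte markers summed to 0.940 to 1.41 FPKM in BMP2+RSPO2, 2.35 to 2.65 in BMP2, 2.64 to 3.02 in RSPO2 and 2.64 to 4.37 in Control, with Plin1 at 0 throughout. Adipoq, Fabp4, Lpl and Pparg did not exceed 0.05, 0.14, 0.12 and 0.35 FPKM in any library and were not tested. Cebpa, which encodes a transcription factor of adipocyte differentiation, was the only gene of this list tested and makes up most of its sum. Cebpa fell by 1.17 in BMP2+RSPO2 against Control (limma adjusted p = 0.00117) and by 0.85 against RSPO2 (limma adjusted p = 0.00455). The sums stayed at or below 4.35 FPKM for 5 macrophage markers (Ptprc and Adgre1 at 0 throughout) and at or below 5.35 FPKM for 4 endothelial markers.

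Libraries differed within arms. Replicate 1 of BMP2+RSPO2 had a summed FPKM of 635139, against 322074 to 380507 in the others, and 57.8% of it lay in its top 10 genes, against 11.4% to 19.8%. The 12 cell cycle genes summed higher in replicate 1 of every arm, at 342 FPKM against 126 and 126 in BMP2+RSPO2 and at 717 against 178 and 199 in Control. Smpd3 in replicate 1 was below the mean of replicates 2 and 3 by -0.48 on the log2 scale in BMP2+RSPO2, -1.04 in RSPO2 and -0.98 in Control, but 0.05 above it in BMP2. For Sgms2 the same differences were -0.40 in BMP2+RSPO2, -0.63 in RSPO2, -0.73 in Control and 0.33 in BMP2. The part of cell cycle genes in the results was not tested. In replicates 2 and 3 alone, BMP2+RSPO2 exceeded Control by 2.69 for Sgms2 (limma adjusted p = 0.000294) and by 1.68 for Smpd3 (limma adjusted p = 0.000534). There the interaction was called for Sgms2 at 2.14 (limma adjusted p = 0.00943), Smpd3 at 1.48 (limma adjusted p = 0.0106) and Sphk1 at -1.01 (limma adjusted p = 0.0443).

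Genes with patterns most like those of Sgms2 and Smpd3 were ranked by Pearson r of log2(FPKM + 1) over the 12 libraries among 9790 tested genes with a symbol. These points share 4 arms and their libraries, so r is a description. Nearest to Sgms2 were Col24a1 (r = 0.993), Dixdc1 (0.989), Adgrd1 (0.987), Tcf7 (0.980) and Arl4c (0.979). Col24a1, which encodes a fibrillar collagen, averaged 25.1 ± 4.02 FPKM in BMP2+RSPO2, 11.0 ± 0.596 in BMP2, 3.06 ± 0.951 in RSPO2 and 4.21 ± 1.45 in Control (SD, n = 3 each). Tcf7, which encodes a TCF/LEF factor, averaged 125 ± 9.17 FPKM in BMP2+RSPO2, 94.0 ± 7.34 in BMP2, 65.3 ± 12.6 in RSPO2 and 71.5 ± 11.5 in Control (SD, n = 3 each). Nearest to Smpd3 were Gpc1 (0.992), Fam102a (0.990), Tgfb1 (0.988), Slc8a3 (0.986) and Adgrd1 (0.985), so Adgrd1, an adhesion receptor gene, stood in both sets. Sgms2 and Smpd3 had r = 0.970 with each other, which placed Smpd3 at rank 16 for Sgms2 and Sgms2 at rank 20 for Smpd3.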

How the data were processed

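Libraries were stranded and poly(A)-selected, per the labels' protocols. The submitters' processing notes name HISAT2 2.0 and StringTie 1.3.4, with cutadapt 1.10 and FastQC 0.10.1, and give edgeR no version. FPKM values are as the authors deposited them, for every gene in each library. They also deposited p-value and q-value columns whose groups are not stated, and these were not used. The notes name GRCm38 and mm10, whereas the gene identifiers belong to the C57BL/6NJ annotation, so members were matched to GENCODE M21 and RefSeq by symbol.

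From the FPKM, log2(FPKM + 1) was computed for genes at 1 FPKM or more in at least 3 libraries and fitted with limma 3.58.1 (trend, R 4.3.3) over all 12 libraries and 4 arms, two-sided, with 8 residual degrees of freedom, no covariates and Benjamini-Hochberg adjustment over all 11548 genes. Fold changes understate low genes because of the pseudocount. The script was tested on simulated data. The depth is unknown: over 66 pairs of libraries, ratios of values from 0.2 to 1 FPKM showed no steps of whole reads (fullest bin of width 0.02: 2.08% to 4.43%). No pair of libraries was identical, and the fewest genes that differed was 16883. Genes named were all members, every called gene of the 5 other sphingolipid lists and the mineralization list (at most the 6 smallest p per list and comparison), the osteoblast markers and the 5 most alike genes of Sgms2 and Smpd3. Markers of other lineages are given as sums, with genes at or near 0 and genes that carry a sum named. Cebpa, Acta2, Tagln, Col2a1, Sox9 and Col10a1 were named after their values were seen. Replicate numbers are shared by the arms, and nothing in the labels ties them. Every same-number pair had a correlation of deviations from the arm means over 0.1 in 4 of the 6 pairs of arms, BMP2+RSPO2 with Control and with BMP2 among them, but not in BMP2+RSPO2 with RSPO2 (lowest -0.124) or BMP2 with Control (lowest 0.079). From the glycosphingolipid list, 1 gene is not reported here and is left out of the counts. Members and lists were chosen with earlier results of these data known. Alternatives were a pseudocount of 0.1, no filter, quantile normalization, median-of-ratios scaling, the replicate number as a block, replicates 2 and 3 alone, and each library left out in turn.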

Additional observations from a re-analysis of the deposited data

How the results depend on the processing

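Sgms2 and Smpd3 in BMP2+RSPO2 against Control and against RSPO2, and Sgms1 in BMP2+RSPO2 against RSPO2, kept their direction and were called under all 18 alternatives. The Ugcg calls, lost under both scalings, are given with the gene. The share of all genes called under each alternative was not computed. The counts below therefore describe the listed genes only and cannot be set against the rate over all genes.

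Leaving out each library in turn, the number of the 8 genes called was 3 in BMP2+RSPO2 against Control, 0 to 1 in BMP2 against Control, 0 in RSPO2 against Control, 0 to 1 in BMP2+RSPO2 against BMP2, 4 to 5 in BMP2+RSPO2 against RSPO2 (Sphk1 added without RSPO2 replicate 1) and 0 to 1 for the interaction. The number of the 43 other sphingolipid genes called was 4 to 12, 0 to 6, 0, 0 to 3, 5 to 12 and 0 to 1 in the same order, where the main counts were 8, 1, 0, 1, 10 and 0. The highest of these counts came without BMP2+RSPO2 replicate 1, and the lowest counts of 4 and 5 came without Control replicate 1 and RSPO2 replicate 1.

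In replicates 2 and 3 alone, the 8 genes gave 2 calls in BMP2 against Control, 3 in BMP2+RSPO2 against BMP2 (Sgms2, Smpd1 and Smpd3) and 3 for the interaction, and the other genes gave 16 in BMP2+RSPO2 against Control, 5 in BMP2 against Control, 1 in RSPO2 against Control, 8 in BMP2+RSPO2 against BMP2, 17 in BMP2+RSPO2 against RSPO2 and 5 for the interaction. Without the filter, counts were 0 of the 8 and 0 of the other genes in BMP2 against Control (Sgms2 adjusted p = 0.0809). The other genes called in BMP2+RSPO2 against BMP2 were 0 under quantile normalization and 0 under median-of-ratios scaling, which called 2 in BMP2 against Control. The cause of these differences was not tested.

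With the replicate number as a block, the 8 genes gave 4 calls in BMP2+RSPO2 against Control (Sgms1 added), 2 in BMP2 against Control (Smpd3 added, adjusted p = 0.0423), 2 in BMP2+RSPO2 against BMP2 (Sphk1 added), 5 in BMP2+RSPO2 against RSPO2 (Sphk1 added, adjusted p = 0.0480) and 1 for the interaction (Sgms2, adjusted p = 0.0427), and changed no other call of the 8. The other genes gave 12 in BMP2+RSPO2 against Control, 5 in BMP2 against Control, 2 in BMP2+RSPO2 against BMP2 and 12 in BMP2+RSPO2 against RSPO2. Over all arms, 16 of 18 same-number pairs had correlations of deviations over 0.1, and 10 of 12 libraries correlated best with their own number. Pairs with different numbers ranged from -0.453 to 0.354, the highest being BMP2+RSPO2 replicate 3 with RSPO2 replicate 2. Replicate 1 differed from replicates 2 and 3 in cell cycle genes in every arm. Whether that difference or pairing lies behind the correlations was not tested. Whether the numbers mark shared cultures or days is not given in the sources used here.

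Directions that reversed belong to values near 0 that were not called. Under quantile normalization and median-of-ratios scaling, Sgms1 was at 0.10 and 0.09 in BMP2+RSPO2 against BMP2, Sphk1 at 0.16 and 0.15 and Sphk2 at 0.19 and 0.19 in BMP2+RSPO2 against Control, and Cers2 at 0.08 and 0.07 in BMP2 against Control, 0.21 and 0.19 in BMP2+RSPO2 against RSPO2 and 0.13 and 0.13 for the interaction. In replicates 2 and 3 alone, Smpd1 was at -0.12 in BMP2 against Control and Sphk2 at 0.11 in BMP2+RSPO2 against Control. Leaving out 1 library, Smpd1 spanned -0.03 to 0.24 in BMP2+RSPO2 against Control, -0.06 to 0.06 in BMP2 against Control, -0.02 to 0.10 in RSPO2 against Control, -0.04 to 0.22 in BMP2+RSPO2 against BMP2, -0.07 to 0.20 in BMP2+RSPO2 against RSPO2 and -0.08 to 0.18 for the interaction. Sphk1 spanned -0.17 to 0.09 and Sphk2 -0.13 to 0.18 in BMP2+RSPO2 against Control, with Sphk2 at -0.17 to 0.04 in BMP2 against Control and -0.05 to 0.26 in BMP2+RSPO2 against BMP2. Cers2 spanned -0.16 to 0.10 in BMP2 against Control, -0.01 to 0.25 in BMP2+RSPO2 against BMP2 and -0.18 to 0.08 for the interaction.

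With 3 libraries an arm and unknown depth, differences of the size seen over all libraries for Smpd1, Cers2 and Sphk2 did not pass the threshold, and no counting error can be given.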
